A study of Mus musculus with 8 samples.

Results

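Open chromatin of mouse embryonic fibroblasts (MEFs) at day 5 of reprogramming was set against that of embryonic stem cells (ESCs), to ask which open sites of the pluripotent state were listed at day 5, which were not, and what day 5 held that ESCs lacked. The sites were the peaks of ATAC-seq, an assay in which a transposase cuts accessible DNA and so marks it for sequencing. All 36219 peaks of the day 5 list and all 48486 peaks of the ESC list were used, 84705 of the 176445 peaks in the 4 lists of the series. A peak of one list was called present in the other when the intervals shared at least 1 bp.

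The day 5 cells were wild-type MEFs of the C57BL/6J-OG2 strain, which carries a green fluorescent protein reporter driven by Pou5f1 sequence. They had been infected with retroviruses that deliver the OSKM factors (OCT4, the product of Pou5f1, with SOX2, KLF4 and MYC) and with a FLAG control vector, and were grown in ESC medium with vitamin C, with day 0 at the first infection. The ESCs were wild-type and uninfected, and the labels give C57Bl6J for replicate 1 and C57BL/6J-OG2 for replicate 2. The other groups, used here only as reference states, were uninfected OG2 MEFs and the OSKM cells at day 10. Every group had 2 libraries of 50000 cells each and 1 deposited list, so there was no list per replicate, no test between replicates could be made, and each 95% interval below (Wilson for a share, Newcombe for a difference) covers counting error only. A day 5 culture is a mixture of infected, uninfected and differently advanced cells, and a peak list cannot separate a site open in few cells from a site weakly open in many. The labels place the ESCs on feeder cells made from MEFs, while the study's methods describe gelatin and 2i/L medium, so medium and cell type cannot be told apart.

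In reprogramming, OCT4, SOX2 and KLF4 bind DNA together with other factors, close enhancers of the fibroblast programme and open enhancers of the pluripotency programme, which is completed late by endogenous factors such as ESRRB, NANOG and PRDM14. Promoters rich in CpG dinucleotides tend to be open in most cell types, whereas enhancers, mostly far from start sites, carry much of the difference between cell types. AP-1 factors (FOS and JUN proteins) occupy many fibroblast enhancers, and CTCF holds chromatin loops in nearly every cell type.

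The sequences below are the central 200 bp of 8 peaks over 5 kb from any annotated start site (distal peaks). They are read 5′ to 3′ on the plus strand of GRCm38 and are examples from the 3 classes of distal site. All 8 were picked among peaks with at least 1 match, so they do not show how common a match was. Capitals mark matches, on either strand, to the consensus letters searched for.

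The first 3 were ESC peaks present at day 5 and without a MEF peak. The Fn1 site, at chr1:71673521-71673720, lay between genes 19.9 kb from a start of Fn1 (fibronectin) and held a KLF match. The Tet2 site, at chr3:133524676-133524875, lay in an intron of Tet2, a 5-methylcytosine dioxygenase, and held 2 SOX matches. The Wdr20rt site, at chr12:65593730-65593929, was the highest-scoring distal ESC peak with a SOX match in this class and lay between genes, 367 kb from its nearest start.
Fn1: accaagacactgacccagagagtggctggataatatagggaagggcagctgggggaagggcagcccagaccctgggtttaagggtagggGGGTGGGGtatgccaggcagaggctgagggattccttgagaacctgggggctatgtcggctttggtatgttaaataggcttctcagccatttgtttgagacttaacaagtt
Tet2: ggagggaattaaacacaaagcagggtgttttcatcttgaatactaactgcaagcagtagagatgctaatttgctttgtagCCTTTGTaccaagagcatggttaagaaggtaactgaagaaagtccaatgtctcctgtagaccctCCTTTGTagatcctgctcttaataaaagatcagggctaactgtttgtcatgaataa
Wdr20rt: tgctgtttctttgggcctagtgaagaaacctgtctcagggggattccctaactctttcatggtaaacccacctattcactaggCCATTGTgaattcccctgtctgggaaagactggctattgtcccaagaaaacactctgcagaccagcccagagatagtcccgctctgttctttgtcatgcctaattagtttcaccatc

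The next 3 were ESC peaks absent at day 5, absent also from MEFs and day 10. The Klf5 site, at chr14:99340174-99340373, lay between genes 40.5 kb from a start of Klf5, a factor of naive pluripotency, and held the octamer read by OCT4. The Lifr site, at chr15:7081887-7082086, lay 8.22 kb from a start of the receptor for leukaemia inhibitory factor (LIF) and held a SOX match. The Xpnpep1 site, at chr19:53064599-53064798, in an intron of the RNA gene 1700054A03Rik, was the highest-scoring distal ESC peak absent at day 5 with an ESRRB match.
Klf5: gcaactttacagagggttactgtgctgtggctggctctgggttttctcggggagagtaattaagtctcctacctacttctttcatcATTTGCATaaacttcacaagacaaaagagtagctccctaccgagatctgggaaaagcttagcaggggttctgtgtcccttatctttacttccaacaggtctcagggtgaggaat
Lifr: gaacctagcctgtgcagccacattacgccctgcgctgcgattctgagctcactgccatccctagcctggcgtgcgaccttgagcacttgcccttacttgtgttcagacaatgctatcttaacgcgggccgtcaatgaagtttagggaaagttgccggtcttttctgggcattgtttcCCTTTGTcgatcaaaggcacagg
Xpnpep1: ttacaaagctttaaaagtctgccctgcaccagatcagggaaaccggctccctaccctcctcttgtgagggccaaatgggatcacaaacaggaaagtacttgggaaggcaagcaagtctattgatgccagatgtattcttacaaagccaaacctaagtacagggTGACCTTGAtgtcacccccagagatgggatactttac

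The last pair were day 5 peaks absent from ESCs and present in both MEFs and day 10 cells. Their nearest protein-coding gene was Zeb2, a repressor of epithelial genes, at 659 kb and 1113 kb. The first, at chr2:45777058-45777257, held an AP-1 match, and the second, at chr2:46231007-46231206, a SOX match. The Wdr20rt and Xpnpep1 sites were chosen after the motif shares had been seen, and the other 6 by a rule on score and nearest gene.
Zeb2 first site: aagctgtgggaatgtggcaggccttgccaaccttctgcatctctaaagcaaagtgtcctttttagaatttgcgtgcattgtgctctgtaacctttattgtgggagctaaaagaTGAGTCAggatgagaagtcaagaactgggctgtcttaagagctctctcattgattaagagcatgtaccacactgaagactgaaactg
Zeb2 second site: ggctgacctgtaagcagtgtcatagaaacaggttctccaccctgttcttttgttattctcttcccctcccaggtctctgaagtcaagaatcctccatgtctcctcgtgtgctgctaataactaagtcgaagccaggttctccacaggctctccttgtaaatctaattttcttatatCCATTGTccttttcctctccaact

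Of the ESC peaks, 17530 of 48486 (36.2%, 95% interval 35.7% to 36.6%) were present at day 5 and 30956 were not. In the other direction 17500 of 36219 day 5 peaks (48.3%, 47.8% to 48.8%) were present in ESCs, and 18719 were held at day 5 without an ESC peak. The peaks that met did so over most of their length: the median overlap was 599 bp, which covered a median of 82.5% of the ESC peak and 91.5% of the day 5 peak, and only 125 of 17550 overlapping pairs shared under 50 bp. ESC peaks absent at day 5 were seldom near misses, since 144 of the 30956 lay within 100 bp of a day 5 peak and the median distance to the nearest was 19.3 kb. In bp, 33.8% of the DNA in ESC peaks lay in a day 5 peak, and 46.0% of that in day 5 peaks lay in an ESC peak. Over the 20 chromosomes other than Y, the share of ESC peaks present at day 5 ranged from 32.5% on chromosome 1 to 42.7% on chromosome 11.

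Shared sites were mostly promoters. Of the 13058 ESC peaks that covered an annotated transcript start, 81.9% were present at day 5, and of the 3396 that came within 1 kb without covering it, 32.6% were. The share was 19.7% at 1 to 5 kb and 17.4% (4364 of 25101, 16.9% to 17.9%) beyond 5 kb, down to 14.1% beyond 100 kb. Day 5 peaks showed the same order, with 91.7% of those covering a start present in ESCs, 32.1% at 1 to 5 kb, 23.9% (4385 of 18341, 23.3% to 24.5%) beyond 5 kb and 11.9% beyond 100 kb. The share within 1 kb exceeded the distal share by 54.3 percentage points for ESC peaks (71.7% against 17.4%, interval of the difference 53.5 to 55.2) and by 62.2 points for day 5 peaks (86.2% against 23.9%, 61.4 to 63.1), in both lists on 20 of 20 chromosomes. The place within a gene made little difference among distal peaks. Distal ESC peaks were present at day 5 in 16.8% of cases when centred in an exon, 16.5% in an intron and 18.2% between genes.

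**Figure D1:**
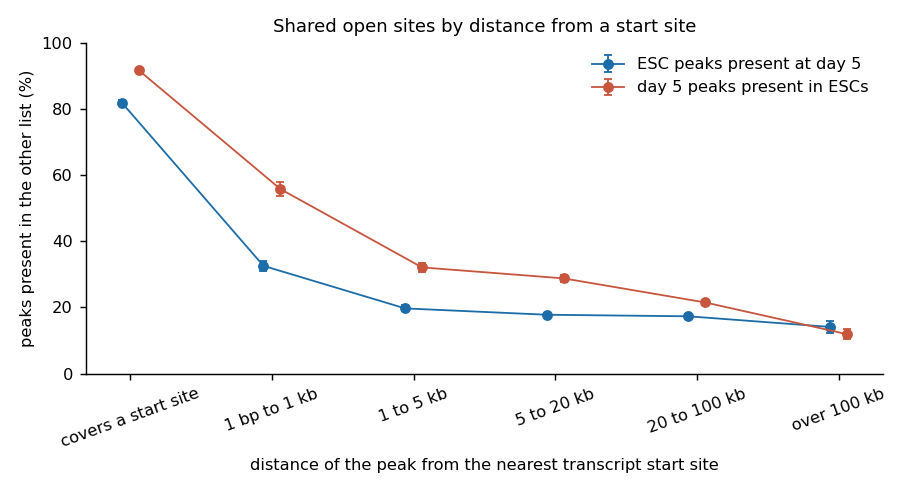
Share of the peaks of each list (y axis, %) that overlapped a peak of the other list, by distance from the nearest transcript start site (x axis); blue points are ESC peaks present at day 5, red points day 5 peaks present in ESCs, and bars are 95% Wilson intervals. Both series go from above 80% for peaks that cover a start site to under 15% for peaks over 100 kb away.

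The promoters that differed were poorer in CpG and weaker than those shared. Among ESC peaks within 1 kb of a start, 82.5% of the 11933 with over 55% G and C in the central 200 bp were present at day 5, against 43.3% of the 4521 with less. Their median ratio of observed to expected CpG was 0.803 where present and 0.366 where absent. Peaks that were absent were also smaller, with a median width of 554 bp against 905 bp, and had a lower score, the authors' measure of significance (10 times the −log10 q-value), at a median of 31 against 62. With the peaks ranked by that score and divided into 10 equal classes, the share of ESC peaks within 1 kb present at day 5 went from 32.8% in the lowest class to 95.3% in the highest. Distal ESC peaks went only from 9.48% to 31.2%, so most of the strongest distal ESC sites were still absent at day 5. Distal day 5 peaks spanned a narrow range, from 20.8% to 30.9% present in ESCs. The number of reads is unknown, and how far score reflects depth was not tested.

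**Figure D2:**
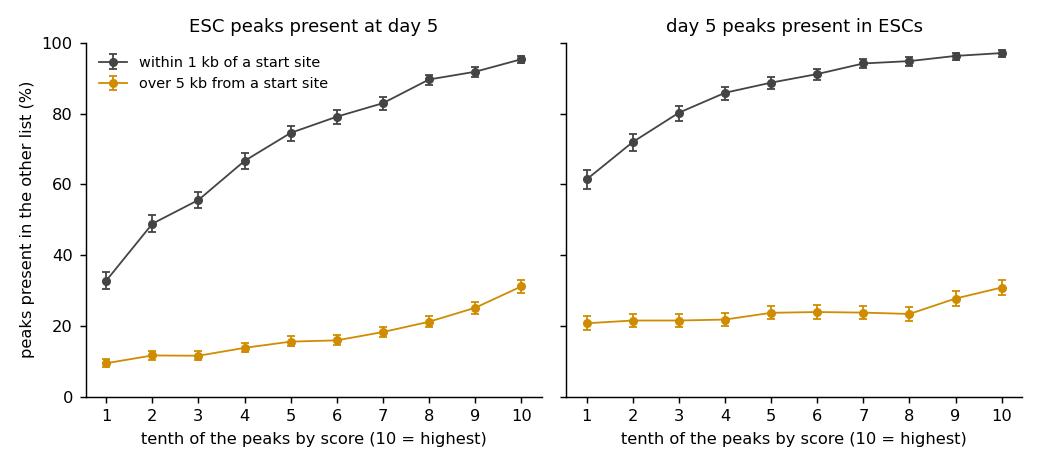
Share of peaks present in the other list (y axis, %) in 10 equal classes of the authors' score (x axis, 10 is the highest), for ESC peaks on the left and day 5 peaks on the right; dark points lie within 1 kb of a start site, orange points over 5 kb away, and bars are 95% Wilson intervals. Promoter peaks reach above 95% in the highest class in both lists, while distal peaks stay at or below 31.2%.

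ESC sites that MEFs also had were listed at day 5 far more often than those MEFs lacked. Of ESC peaks that overlapped a MEF peak, 76.5% were present at day 5, against 10.3% (3038 of 29537) of those that did not. Among distal ESC peaks the shares were 50.0% (2214 of 4427) and 10.4% (2150 of 20674), a difference of 39.6 percentage points (38.1 to 41.1), and within 1 kb of a start they were 88.6% and 9.47%. Open sites of ESCs without a MEF peak were listed at day 5 about as often at promoters as far from them. Of the 2150 distal ESC sites present at day 5 without a MEF peak, 1632 (75.9%) also had a peak at day 10. The 20737 distal ESC sites absent at day 5 were mostly absent from every other list: 17667 (85.2%) had neither a MEF nor a day 10 peak, 1430 (6.90%) had a day 10 peak, and 1640 (7.91%) had a MEF peak only.

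Most of what day 5 held without ESCs had no MEF peak either. Of the 18719 day 5 peaks absent from ESCs, 28.4% overlapped a MEF peak. Of the 13956 distal ones, 3299 (23.6%, 22.9% to 24.4%) did, and 10657 did not. Among those 10657, 5666 (53.2%) recurred at day 10 and 4991 were found at day 5 alone. The distal day 5 sites absent from ESCs were also lower in G and C, with a median of 40% in the central 200 bp against 47% for those present in ESCs and 47% for distal ESC peaks absent at day 5. Their median score was 40, close to the 44 of the shared ones.

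Repeats set the ESC list apart. Soft-masked repeats covered over 50% of 5561 ESC peaks (11.5%), against 3.90% of day 5, 2.81% of day 10 and 1.85% of MEF peaks. Of the 4332 distal ESC peaks of this kind, 8.66% were present at day 5, against 19.2% of the others (difference −10.6 percentage points, −11.5 to −9.53). In the day 5 list the order was the other way round, with 31.1% of 1121 repeat-rich distal peaks present in ESCs against 23.4% of the rest. Only reads mapped to a single place were used, and whether the mapping of repeats differed between libraries was not tested.

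The letters of 8 motifs were then sought on both strands of the central 200 bp of distal peaks, with windows 1 kb to either side as background. They were TCAAGGTCA for ESRRB, ATGCAAAT for the octamer, CCATTGT or CCTTTGT for SOX factors, CCACACCC, CCACGCCC, CCCCACCC or CCCCGCCC for KLF factors, TGACTCA or TGAGTCA for AP-1, 4 forms for TEAD (ACATTCCA, ACATTCCT, GCATTCCA, GCATTCCT), TGTGGTTA or TGTGGTTT for RUNX, and the CTCF consensus. No spelled form contains another, and a match describes the sequence and not the binding of a factor.

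ESRRB, an orphan nuclear receptor of naive ESCs, gave the clearest mark of the ESC sites that day 5 lacked. Its match stood in 1.69% of the distal ESC peaks absent at day 5 and in 0.458% of those present, a difference of −1.23 percentage points (−1.48 to −0.935), in this direction on 20 of 20 chromosomes. The side windows held it at 0.535% and 0.561%, so among the sites present at day 5 the centre was not above its flanks. Read the other way, 20 of the 371 distal ESC peaks with an ESRRB match were present at day 5 (5.39%, 3.52% to 8.18%), against 17.6% of those without. Distal day 5 peaks absent from ESCs held it in 0.193%, below their own side windows at 0.408%. The Xpnpep1 site printed above is an ESC peak absent at day 5 with an ESRRB match.

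The difference for SOX factors was small over all distal ESC peaks and larger among those without a MEF peak. Over all distal ESC peaks it was found in 15.4% of those present at day 5 and 13.8% of those absent (difference 1.62, 0.478 to 2.82), in this direction on only 13 of 20 chromosomes, and the interval spanned 0 when the weaker 50% of the peaks was left out (0.69, −0.86 to 2.31). Among distal ESC peaks without a MEF peak it was in 21.8% of those present at day 5 against 14.5% of those absent (difference 7.31, 5.54 to 9.17, 19 of 20 chromosomes). The day 5 side gave a like picture, with 24.0% of the distal day 5 peaks without a MEF peak that ESCs shared and 16.2% of those ESCs lacked (7.86, 5.97 to 9.83). Side windows of distal peaks held between 6.77% and 7.35% in these classes of both lists, below every centre. The octamer separated the sites little. Of distal ESC peaks, 2.75% of those present and 3.23% of those absent at day 5 held it (difference −0.48, −0.99 to 0.10), and without a MEF peak 3.67% and 3.44%. With the weaker 50% left out the interval excluded 0 (−0.84, −1.53 to −0.05). Among distal day 5 peaks it was in 2.76% of those present in ESCs and 3.59% of those absent (−0.83, −1.38 to −0.23), and without a MEF peak in 4.17% and 4.14%.

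KLF matches were commoner in the ESC sites that were present at day 5. They stood in 13.9% of distal ESC peaks present at day 5 and 8.99% of those absent (difference 4.89, 3.82 to 6.02, 20 of 20 chromosomes), and without a MEF peak in 11.5% against 8.91% (2.58, 1.23 to 4.05). The side windows also differed, at 6.02% and 4.96%. CTCF matches had a high share present, as 142 of 435 distal ESC peaks with a CTCF match were listed at day 5 (32.6%, 28.4% to 37.2%) and 140 of 223 day 5 peaks with a match were listed in ESCs (62.8%, 56.3% to 68.9%). Among distal ESC peaks without a MEF peak the CTCF shares were 1.49% and 1.08%, with an interval of the difference that included 0. Among such day 5 peaks they were 1.11% of those present in ESCs and 0.225% of those absent (difference 0.886, 0.506 to 1.43), from 48 peaks with a match.

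AP-1 was commoner in the distal day 5 sites that ESCs lacked than in those that ESCs shared. Its match was in 11.4% of the distal day 5 peaks absent from ESCs and in 7.25% of those present (difference −4.18, −5.08 to −3.22, 20 of 20 chromosomes), with side windows at 3.19% and 3.10%. Where MEFs had no peak the shares were 7.69% and 5.88% (−1.81, −2.86 to −0.63). RUNX went the same way at 3.79% against 2.51%. TEAD went the other way at 5.31% against 6.80%, and among distal ESC peaks TEAD was in 8.71% of those absent at day 5 and 7.20% of those present (difference −1.51, −2.34 to −0.63), an interval that included 0 without a MEF peak (−1.08, −2.20 to 0.18).

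**Figure D3:**
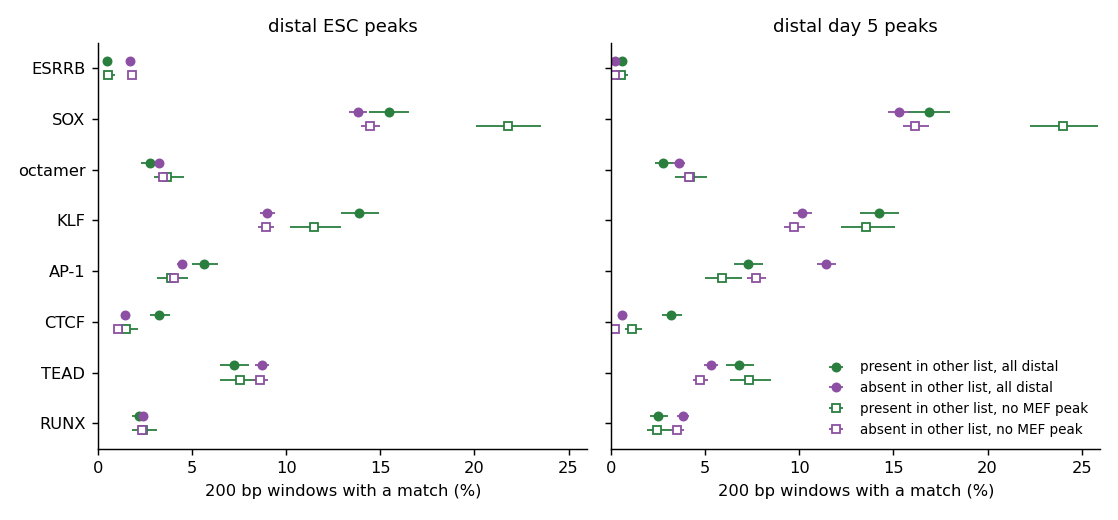
Share of central 200 bp windows of distal peaks with a match to each of 8 motifs (x axis, %), for ESC peaks on the left and day 5 peaks on the right; green marks peaks present in the other list and purple those absent, filled circles are all distal peaks, open squares those without a MEF peak, and bars are 95% Wilson intervals. ESRRB lies higher in ESC peaks absent at day 5 (1.69% against 0.458%), SOX lies furthest right in shared peaks without a MEF peak (21.8% and 24.0%), and AP-1 is highest in day 5 peaks absent from ESCs (11.4%).

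**Figure D4:**
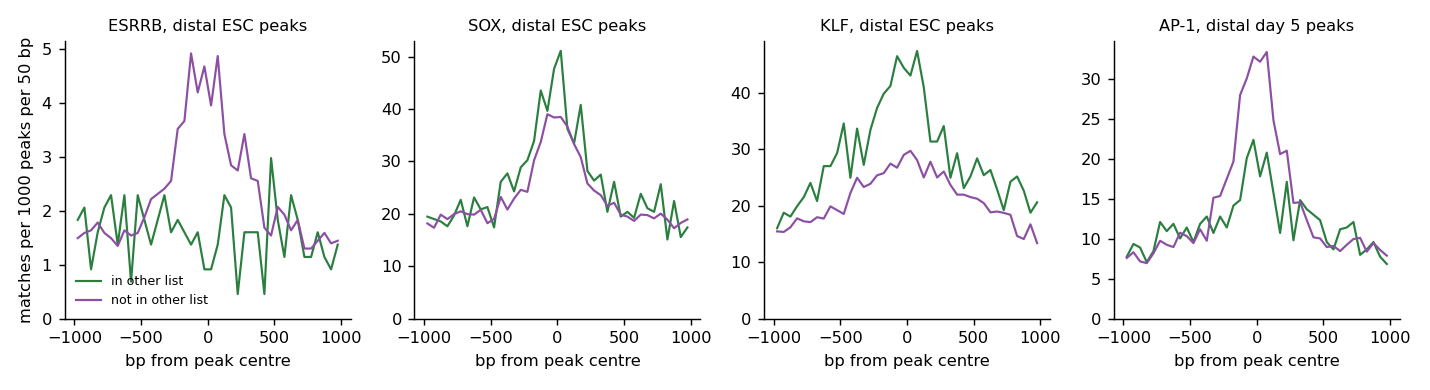
Matches per 1000 distal peaks in 50 bp steps (y axis) by distance from the peak centre in bp (x axis), for ESRRB, SOX and KLF in ESC peaks and AP-1 in day 5 peaks; green lines are peaks present in the other list and purple lines those absent. ESRRB forms a central peak in ESC sites absent at day 5 and not in those present, SOX and KLF form one in both classes, and AP-1 is higher at the centre of day 5 sites absent from ESCs.

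At the level of genes, start sites were largely shared. Of 21853 protein-coding genes, 11611 (53.1%) had a peak within 1 kb of a protein-coding start in both lists (overlapping for 11498 of them), 1703 (7.79%) in ESCs and not at day 5, and 705 (3.23%) at day 5 and not in ESCs. Of the 1703 genes, 981 had a start-site peak in MEFs and 572 at day 10, and of the 705, 613 had one in MEFs. With the 35226 highest-scoring peaks of every list the order of the latter counts turned, to 1164 genes in ESCs only and 1580 at day 5 only. The shares over all genes are the background for each gene list below, and the counts are descriptions without a test.

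Pluripotency genes stood at the far end. Of 27, 24 had an ESC start-site peak, 10 of these genes had a start-site peak at day 5 as well, overlapping for 9, and 14 of 27 had it in ESCs and not at day 5, against 7.79% of all genes. At equal list size 12 of 27 did, against 1164 of all 21853 genes. No pluripotency gene had a start-site peak at day 5 alone. The 14 were Prdm14, Gbx2, Nr5a2, Sall4, Gdf3, Nanog, Fgf4, Zfp42, Dppa5a, Esrrb, Tdh, Dppa4, Dppa2 and Nr0b1, and 5 of them had a MEF start-site peak and 4 a day 10 peak. Across the list, 29 of the 194 ESC peaks nearest to these genes were present at day 5 (14.9%, 10.6% to 20.6%), against 36.1% of the ESC peaks of all genes. Distance from a start was not matched, and the share over all distal ESC peaks, 17.4%, lies inside this interval.

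Esrrb had 16 ESC peaks nearest to its starts, and day 5 and day 10 had none nearest to it. Its highest-scoring start-site peak in ESCs had a score of 48 and a fold enrichment of 2.86 over background. That peak lay 109 kb into the gene, near an internal transcript start, and no list had a peak at the first start. MEFs had 5 peaks, including a start-site peak, but none overlapped this ESC peak. ESC peaks that began 33.9, 41.6, 60.4 and 72.1 kb into the gene did overlap a MEF peak, and those further into the gene did not. Prdm14, a repressor of differentiation genes in ESCs, had 0 of 8 ESC peaks present at day 5. Zfp42 (REX1), a classical marker of ESCs, had 0 of 6, and day 5 had 2 other peaks nearest to it. Dppa2, with a strong ESC start-site peak at score 132, had 0 of 4, and Nr0b1 (DAX1), a nuclear receptor of ESCs, 0 of 3. In all, 9 of the 27 genes of the list had ESC peaks and none of them present at day 5, as had 3880 of all 21853 genes.

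Other members had a few of many ESC sites at day 5. Nr5a2, a nuclear receptor able to regulate Pou5f1, had 2 of 20, Mycn 2 of 23 and Klf5 2 of 17. Tfcp2l1, a factor of the naive state, had 4 of 13 and a start-site peak in all 4 lists, with a score of 62 in ESCs and 36 at day 5. Nanog, the homeodomain factor of pluripotent cells, had 2 of 5, but its start site carried a peak in ESCs (score 66) and in no other list. Sall4, a zinc finger factor that acts with OCT4, had a start-site peak in MEFs, ESCs (score 89) and day 10 cells and none at day 5. The MEF peak, 2.12 to 2.36 kb into the gene, overlapped no ESC peak. Of the 4 ESC peaks of Sall4, 0 were present at day 5. Tdgf1, a co-receptor for NODAL, had a start-site peak in both lists, but these did not overlap, so its ESC peak was absent at day 5. Klf2 (81 and 95), Tbx3 (88 and 112), L1td1 (47 and 52) and Klf5 (109 and 137) had start-site scores of like size in ESCs and at day 5, respectively.

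**Figure D5:**
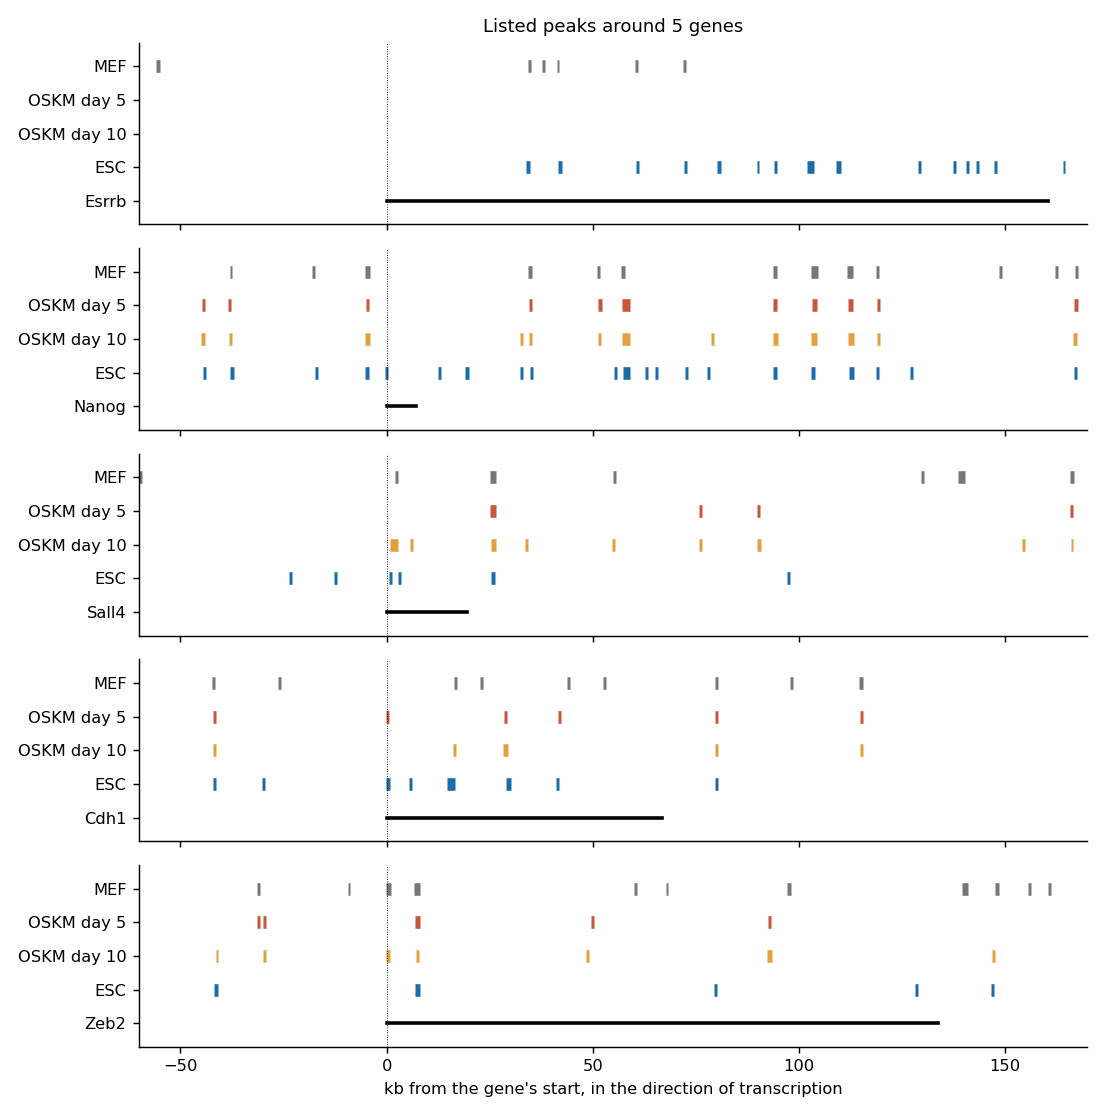
Listed peaks of the 4 groups (rows, coloured bars) from 60 kb upstream to 170 kb downstream of the start of 5 genes, with the gene body in black and the x axis in kb from the gene's start in the direction of transcription. Around Esrrb there are 15 ESC peaks and none at day 5 or day 10, around Nanog 10 of 21 ESC peaks are present at day 5 but not the one at the start, and around Zeb2 1 of 5 is.

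Epithelial genes, whose activation accompanies the transition of fibroblasts to an epithelial state, were divided. Of 15, 5 (33.3%, against 53.1% of all genes) had a start-site peak in both lists. In ESCs only it was found for 6 (40%, against 7.79%), and at day 5 only for 1 (6.67%, against 3.23%). At equal list size, however, 2 had it in ESCs only and 2 at day 5 only, against 1164 and 1580 of all 21853 genes. Cdh1, which encodes E-cadherin, had a start-site peak at day 5 (score 24) and in ESCs (29) and none in MEFs or at day 10. Esrp1, a splicing regulator, Cldn3 and Ocln of tight junctions and Dsp of desmosomes had a start-site peak in all 4 lists, and the scores of Ocln were 63 in ESCs and 13 at day 5. Epcam (56), Cldn4 (23), Cldn7 (16), Krt18 (21), Krt19 (22) and Grhl2 (17) had a start-site peak in ESCs, with the score given, and none at day 5, although 4 of these 6 (Epcam, Cldn4, Krt19 and Grhl2) had it in MEFs and 3 at day 10. Krt8, the keratin that pairs with Krt18, was the gene with a start-site peak at day 5 and not in ESCs.

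Fibroblast and mesenchymal genes went the other way. Of 21, 14 had a start-site peak in both lists, 5 (against 3.23% of all genes) at day 5 only and 0 (against 7.79%) in ESCs only. At equal list size these counts were again 5 and 0, while those over all 21853 genes were 1580 and 1164. The 5 were Col3a1, a fibrillar collagen, Prrx1, a mesenchymal homeobox factor, Tagln and Acta2 of smooth muscle actin filaments, and Pdgfrb, a receptor for platelet-derived growth factor. Their day 5 scores ran from 12 for Prrx1 to 132 for Acta2, and all 5 had a start-site peak in MEFs and at day 10. Thy1 and Postn had a start-site peak in MEFs alone. Of the 109 day 5 peaks nearest to genes of this list, 26 were present in ESCs (23.9%, 16.8% to 32.7%), against 48.3% over all genes. Distance from a start was not matched, and over all distal day 5 peaks the share was also 23.9%. Zeb2 had 23 day 5 peaks, of which 1 was present in ESCs, and Cdh2, which encodes N-cadherin, had 28, of which 4 were. Snai2, another repressor of epithelial genes, had a start-site peak in all lists, with a score of 129 at day 5 and 145 in ESCs.

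A start-site peak in both peak lists was less common among germ layer genes than among all genes (53.1%), and more common in the other gene sets of this paragraph. Of 13 germ layer genes, 9 had a start-site peak in ESCs, as had 13314 of all 21853 genes. In both lists it was found for 4 (30.8%, against 53.1% of all genes), namely Sox17, Pax6, Eomes and Gata6. In ESCs only it was found for 5 (38.5%, against 7.79%), namely Mixl1, Tfap2c, Cdx2, Sox1 and Gata4. At equal list size 2 had it in ESCs only, against 1164 of all 21853 genes. The genes of AP-1 proteins themselves had it in both lists for 8 of 10, with scores that were higher at day 5 for Fos (114 against 57) and Atf3 (125 against 36) and alike for Fosl2 (67 against 66). All 5 genes of the LIF pathway had it in both, including Lifr (30 at day 5, 56 in ESCs) and the signal transducer Il6st (118 and 57), although 7 of the 8 ESC peaks nearest to Lifr were absent at day 5. Among 9 genes of DNA and histone H3 lysine 27 methylation 7 had it in both and Dnmt3l, a cofactor of de novo methylation, in ESCs only. The demethylase gene Kdm6b had no peak within 1 kb of a protein-coding start in any list, but 3 of the 4 ESC peaks nearest to it were present at day 5. Of 10 housekeeping genes 9 had a start-site peak in both lists.

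The 4 reprogramming factor genes were kept apart, because reads from the retroviral copies can fall on their exons and cannot be told apart from the endogenous genes. All had a start-site peak in both lists. The day 5 score of the highest start-site peak exceeded the ESC score for Sox2 (289 against 22) and Klf4 (328 against 52). For Myc (136 at day 5, 35 in ESCs) and Pou5f1, whose sequence also drives the OG2 reporter (51 and 983), the highest-scoring peaks of the lists were different sites that did not overlap. Of the 43 ESC peaks nearest to the 4 genes, 9 were present at day 5 (20.9%, 11.4% to 35.2%), against 36.1% of the ESC peaks of all genes. By gene these were 0 of 12 for Myc, 3 of 16 for Sox2, 4 of 12 for Klf4 and 2 of 3 for Pou5f1. Distance from a start was not matched.

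Neighbouring peaks of a list were joined into clusters by the gap commonly used to stitch super-enhancers. Of all 33060 ESC clusters, single peaks included, 18176 (54.98%) held no day 5 peak, and of the 636 with at least 5 peaks 50 (7.86%) did not. Of 28535 day 5 clusters 13444 (47.1%) held no ESC peak, and of the 136 with at least 5 peaks 3 (2.21%) did not. The largest ESC clusters without a day 5 peak had 8 peaks each, near Proser2 and near Marcks, a substrate of protein kinase C. Those with 7 included 46.4 kb around Dppa5a and Ooep, genes of early embryos, 44.8 kb that lay 22.8 kb from Prdm14, 49.9 kb within Esrrb and 47.5 kb whose nearest gene was Tet2. Tet2 was split in this way: the neighbouring cluster of 26.1 kb at its start had 4 ESC peaks, all present at day 5 and 2 of them distal and without a MEF peak, and the sequence printed above comes from it. Of the ESC clusters rich in distal sites that were present at day 5 without a MEF peak, the first held 3 of 3 such sites and lay 99.7 kb from its nearest gene, Slc44a1, and the next lay near Lrig1, an inhibitor of growth factor receptors (3 of 5). The day 5 clusters without an ESC peak were led by 5 peaks each near Samsn1, Slc35b3 and Col4a1, the gene of a basement membrane collagen. The Col4a1 cluster had 5 MEF peaks, the other leading clusters 2 and 1.

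Single peaks of the highest score differed in kind between the classes. The 5 highest distal ESC peaks present at day 5, nearest to Lars2, Gm8797, Filip1l, Gphn and Ccdc3, were narrow (308 to 479 bp), had fold enrichments from 12.4 to 17.99 and were in all 4 lists. The 5 highest of those absent at day 5 were 758 to 1158 bp wide, with fold enrichments from 5.34 to 7.07, and the first lay 63.3 kb from Adgra3, an adhesion receptor (score 380). No day 10 peak overlapped any of these 5, and 1, near Olfr9, overlapped a MEF peak. The 5 highest day 5 peaks absent from ESCs, led by 1 at 1160 kb from Cdh8 (score 376), were all present at day 10 as well. Of them 2, near Flrt2 and Slco6d1, were also in MEFs. The narrow peaks found in all 4 lists had ESC scores from 901 to 4604. No filter for regions of recurrent high signal was applied here, and whether the narrow peaks are such regions was not tested.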

How the data were processed

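ATAC-seq peaks of 4 groups, each of 2 libraries, were analysed from 1 list per group. According to the labels and methods, the authors mapped reads to mm10 with Bowtie2 (version 2.2.0 in the submitters' processing notes), kept reads mapped to a single place and removed mitochondrial reads. The peak caller is not given in the sources used here. Peaks are named after replicate 1 and the lists are named as intersections, so how replicate 2 entered was not settled. Each deposited peak carries a score, a fold enrichment (the ratio of signal to background) and −log10 values of p (not used here) and q. The deposited score equals 10 times the −log10 q-value without decimals. Reads per library are not given by the lists, so depth is unknown and a longer list may come from deeper libraries. Fold and score were used only within a list or side by side as deposited.

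Overlaps of at least 1 bp, distances, shares and intervals were computed with Python 3.11.15, numpy 2.4.6 and pandas 2.3.3, and the code was tested on simulated data. GENCODE mouse release 21 gave the transcripts and the RefSeq copy of GRCm38 the sequence. A start-site peak lies within 1 kb of a protein-coding transcript start, a distal peak over 5 kb from any transcript start, and each peak was given to the gene with the nearest protein-coding start, a single gene where starts tie. Genes named were those of fixed lists, the 10 leading clusters and the 5 highest-scoring peaks of each class. The members and lists were chosen with earlier results of these data known. Columns of other samples numbered 0.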

Additional observations from a re-analysis of the deposited data

How the results depend on the processing

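No paired analysis was possible because each group has 1 deposited list over both replicates, and for the same reason no replicate could be left out in turn. In 130 recomputed values no motif difference whose interval excluded 0 turned its sign, and 76 values lay inside the reported 95% interval (counts: within 1.5 times). No 2 peaks of a list lay within 400 bp, so merging them changed nothing. The values from merged lists are counted among the 130 and the 76 and could not differ. Autosomes alone moved no value. In what follows values are in the order ESC peaks, then day 5 peaks.

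When the overlap had to cover 50% of both peaks, the shares present were 27.3% and 36.5% in all, 59.0% and 71.0% within 1 kb of a start, and 10.8% and 14.8% beyond 5 kb, 18.8% of day 5 peaks without an ESC peak overlapped a MEF peak, and the SOX difference was 3.18 points. With q-values of at most 0.01 the shares were 37.4% and 47.6% in all, 72.6% and 85.3% within 1 kb, and 22.1% for distal day 5 peaks, and the interval of the SOX difference (1.02 points, −0.23 to 2.34) spanned 0. With the 35226 highest-scoring peaks of every list they were 42.5% and 42.5% in all, 77.8% and 78.7% within 1 kb, and 19.8% and 19.1% beyond 5 kb, so at equal list size the shares of both lists were close and the order of the distal shares turned. There, 14.6% of ESC peaks without a MEF peak were present at day 5, 24.9% of day 5 peaks without an ESC peak overlapped a MEF peak, 1580 genes had a start-site peak at day 5 only against 1164 in ESCs only, and the SOX difference was 0.67 points (−0.68 to 2.08). The order of these 2 gene counts thus reversed at equal list size.

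Without repeat-rich peaks the ESC shares were 39.5% in all, 72.7% within 1 kb, 18.9% beyond 5 kb and 10.7% without a MEF peak, the distal day 5 share was 23.0%, 29.2% of day 5 peaks without an ESC peak overlapped a MEF peak, and the octamer difference was 0.19 points. With protein-coding starts only, the shares were 77.9% and 89.3% within 1 kb and 18.3% and 25.9% beyond 5 kb. They were 81.9% and 91.7% for peaks covering a start, and 16.9% and 19.8% beyond 20 kb, where the SOX difference was 3.19 points. Over whole peaks the differences were −2.12 for ESRRB, 7.32 for SOX, 0.73 for the octamer, 12.7 for KLF and −5.73 points for AP-1, and wider peaks hold more letters.

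The other alternatives were chosen after seeing the data. Among distal peaks without a MEF peak the shares were 10.4% and 16.9%, and the differences 7.31 for SOX, 0.24 for the octamer, 2.58 for KLF and −1.81 points for AP-1. In the higher-scoring 50% of distal peaks the shares were 22.3% and 25.9%. In the higher-scoring 50% of those without a MEF peak the differences were 7.08 for SOX, 1.78 for KLF and −2.28 points for AP-1. The causes of these shifts were not tested.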
